A study of Mus musculus with 21 samples.

Results

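The genes described here are 40 mouse interferon-stimulated genes, chosen by name from a fixed list and followed through all 21 libraries of the count table, which holds 54532 genes. Of these, 31 form the type I class, which holds antiviral effectors, nucleic acid sensors and regulators known for their induction by type I interferon. The other 9 are guanylate-binding proteins, immunity-related GTPases and genes of class I antigen processing, and are given apart. All 40 were found by symbol, and all 40 passed the filter on low counts that left 22935 genes for testing. The libraries are RNA-seq of myeloid cells of male C57BL/6 mice, sorted from adipose tissue by flow cytometry. The animals ate a high fat diet (obese) or a normal diet (lean) for 16 weeks, and no engineered allele is named for any group. Each of 7 groups has 3 libraries: lean and obese MHCII-low macrophages, lean and obese CD11c-negative macrophages (positive for MHC class II, without CD11c), obese CD11c-positive macrophages (positive for both) and lean and obese monocyte-derived cells. Nothing in the labels states that replicates come from separate animals, so p-values measure only the spread between these samples, which may be technical.

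Type I interferons bind a receptor of the IFNAR1 and IFNAR2 chains, whose kinases JAK1 and TYK2 activate transcription factors. A complex that includes STAT2 and IRF9 then binds interferon-stimulated response elements (ISRE) near the start of target genes. Interferon gamma acts through its own receptor and on gamma-activated sites (GAS), and it is the better known inducer of guanylate-binding proteins, immunity-related GTPases and the immunoproteasome. Part of the type I class can also be induced straight from nucleic acid sensors through IRF3 and IRF7, without the interferon receptor. In adipose tissue, macrophages are both a source and a target of these signals.

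The promoters of 6 members are shown because the libraries separated members that share the response element. RefSeq gives a promoter window on GRCm38.p6 (300 bases, 250 before the start site and 50 after) for 30 of the 40 members. The ISRE letters, GAAA, any 2 bases and GAAA again, searched on both strands, were in the window of 12 of 22 type I genes (54.5%) and 5 of 8 genes of the second class (62.5%). They were in 1131 of 32851 promoters of all genes (3.44%). The GAS letters TTCNNNGAA were in 5 of 22 type I genes (22.7%) and 3 of 8 genes of the second class (37.5%), against 8.3% of all promoters. For both sets of letters, members were counted by gene, with a match in any window, and all promoters by window. The 30 members had 35 windows. The 250 bases before the start site follow, read 5′ to 3′ on the strand of the gene, with ISRE matches in capitals. Isg15 (chr4:156200819-156201068, minus strand) had 3 overlapping matches, the first base of which lay 78, 72 and 66 bases before the start. Ifit1 (chr19:34640639-34640888, plus strand) had 2, at 104 and 85 bases. Rsad2 (chr12:26456453-26456702, minus strand) had 1, at 120 bases. Oasl1 (chr5:114922990-114923239, plus strand) had none in its window. Ifit3 (chr19:34583279-34583528, plus strand) had the same 2 versions of the site as Ifit1, at 156 and 122 bases. Gbp7 (chr3:142530086-142530335, plus strand) had 1 of those versions, at 53 bases.
Isg15: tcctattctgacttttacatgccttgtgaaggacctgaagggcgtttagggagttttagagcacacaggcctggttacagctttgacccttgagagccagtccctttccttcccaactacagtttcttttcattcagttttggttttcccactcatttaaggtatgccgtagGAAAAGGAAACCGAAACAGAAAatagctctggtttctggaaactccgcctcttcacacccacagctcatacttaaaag
Ifit1: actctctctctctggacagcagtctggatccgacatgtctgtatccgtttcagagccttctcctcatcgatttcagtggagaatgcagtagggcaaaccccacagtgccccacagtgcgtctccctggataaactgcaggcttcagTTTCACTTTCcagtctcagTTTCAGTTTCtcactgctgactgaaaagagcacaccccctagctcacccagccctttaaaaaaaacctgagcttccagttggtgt
Rsad2: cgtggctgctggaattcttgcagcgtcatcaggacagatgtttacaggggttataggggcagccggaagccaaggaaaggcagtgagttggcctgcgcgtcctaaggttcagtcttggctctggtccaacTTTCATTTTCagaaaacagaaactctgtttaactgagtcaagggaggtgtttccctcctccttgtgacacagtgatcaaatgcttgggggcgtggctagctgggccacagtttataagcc
Oasl1: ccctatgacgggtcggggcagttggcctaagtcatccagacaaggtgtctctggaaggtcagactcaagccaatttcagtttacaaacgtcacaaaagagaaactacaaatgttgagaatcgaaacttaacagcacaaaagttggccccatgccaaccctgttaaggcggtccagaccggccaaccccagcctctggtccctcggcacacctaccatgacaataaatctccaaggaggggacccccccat
Ifit3: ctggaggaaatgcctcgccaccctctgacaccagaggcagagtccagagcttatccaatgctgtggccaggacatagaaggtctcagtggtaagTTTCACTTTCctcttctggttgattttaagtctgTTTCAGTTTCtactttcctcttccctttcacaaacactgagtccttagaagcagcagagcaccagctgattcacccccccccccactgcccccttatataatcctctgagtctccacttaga
Gbp7: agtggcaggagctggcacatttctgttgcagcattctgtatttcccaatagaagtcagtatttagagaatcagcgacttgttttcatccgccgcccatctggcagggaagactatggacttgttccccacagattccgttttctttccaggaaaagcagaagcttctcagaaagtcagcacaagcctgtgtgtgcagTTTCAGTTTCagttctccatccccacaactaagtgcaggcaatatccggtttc
A match is a description of the letters only. Ifit1 and Ifit3 hold TTTCACTTTC and TTTCAGTTTC in the same order, and Gbp7 holds TTTCAGTTTC.

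Library totals ran from 11245851 to 35568948 counts. Levels are in CPM, counts relative to the TMM-scaled library total, and means are given ± SD with n = 3. Macrophage markers were present in the macrophages, but the sum of monocyte markers was not highest in monocyte-derived cells. Summed monocyte markers (8 genes) ran from 535 to 1140 CPM there, against 2530 to 4266 CPM in lean and 208 to 3484 CPM in obese macrophages. Gene by gene, 7 of the 8 were called higher and 1 lower in obese monocyte-derived cells than in obese MHCII-low macrophages. Against CD11c-positive macrophages 7 were higher and 0 lower. In lean mice 3 were higher and 2 lower than in MHCII-low macrophages. Summed macrophage markers (9 genes) ran from 7417 to 10985 CPM in the macrophage libraries and from 1108 to 2967 CPM in monocyte-derived cells. Summed markers of conventional dendritic cells (8 genes) ran from 420.1 to 1261 CPM in lean and from 367 to 788 CPM in obese monocyte-derived cells, against 26.8 to 127 CPM in macrophages. Pairs of lean monocyte-derived libraries correlated at 0.904 to 0.942 (Pearson's r over genes), and pairs within each of the other 6 groups at 0.972 to 0.990. In sorted bulk samples, fewer cells of a type and less RNA per cell cannot be told apart.

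Per kilobase of exon, Trim25, an E3 ligase that ubiquitinates the sensor RIG-I, was the most abundant member, with a mean over the 7 groups of 112.6 CPM per kb. Oasl1, a member of the oligoadenylate synthetase family without enzyme activity that restrains IRF7, followed at 28.4 CPM per kb. Bst2, the membrane tether tetherin, stood at 25.8, the macrodomain protein gene Parp14 at 17.3 and the ubiquitin-like modifier gene Isg15 at 16.4 CPM per kb. Gbp2 led the second class at 13.1 CPM per kb, before Psmb8 at 8.49 and Tap1 at 8.05. The least abundant members were Ifit3b at 0.482 and Ifi44 at 0.101 CPM per kb. The highest group mean fell in a lean macrophage group for 24 of the 31 type I genes, 17 in lean MHCII-low and 7 in lean CD11c-negative macrophages. Some of these means rest mostly on 1 library, such as those of Oasl1 and Rsad2 in lean MHCII-low and of Isg15 and Ifih1 in lean CD11c-negative macrophages. Of the 9 genes of the second class, 5 were highest in monocyte-derived cells, 4 in lean and 1 in obese. The highest group was not counted over all genes, so no share stands beside these counts.

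**Figure D1:**
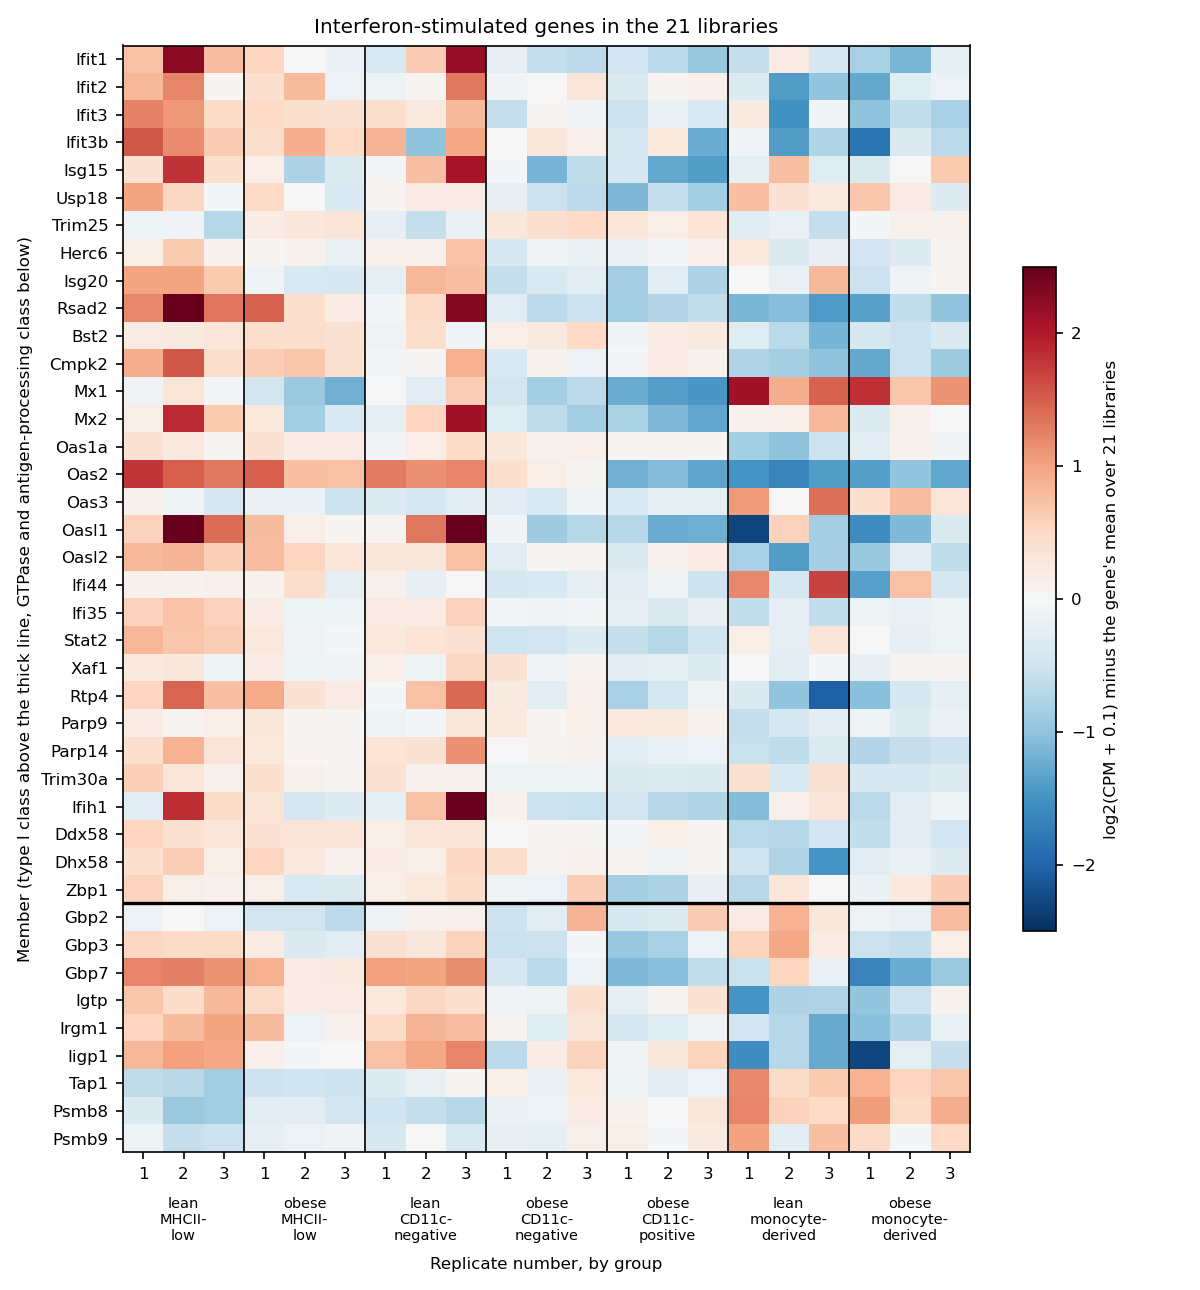
Level of each of the 40 members (rows, ordered by role) in each of the 21 libraries (columns), as log2(CPM + 0.1) minus the mean of the gene over all libraries. Lean MHCII-low replicate 2 and lean CD11c-negative replicate 3 are dark red for Ifit1, Isg15, Rsad2, Mx2, Oasl1 and Ifih1, and the monocyte-derived libraries are blue for most type I genes and red for Mx1, Tap1 and Psmb8.

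In 1 lean library of each macrophage population, 6 type I members stood at least 2-fold above the mean of the other 2 replicates. The 6 were Ifit1, Isg15, Rsad2, Mx2, Oasl1 and Ifih1, in lean MHCII-low replicate 2 and lean CD11c-negative replicate 3. Both the libraries and the genes were picked after their values were seen, so these values are a description with no test. Deviations of these 2 libraries from their group means correlated at 0.639 over 7909 genes, the highest of the lean pairs. The 2 libraries may thus not be independent. Of 15708 genes with a mean of at least 1 CPM, 41 (0.261%) passed the same 2-fold bound in both libraries. Oasl1 was at 66, 373 and 117 CPM in lean MHCII-low and at 46.1, 110.2 and 344 CPM in lean CD11c-negative replicates 1, 2 and 3. Ifih1, which encodes the sensor MDA5, was at 57, 251 and 95.8 CPM and at 58.9, 116 and 386 CPM in the same libraries. Rsad2, which encodes viperin, was at 61.8, 203 and 68.1 CPM and at 26.4, 37.4 and 132 CPM. In each of these genes 1 library of 3 carried most of the group mean, and the replicates of the group differed by 3.28-fold to 7.46-fold.

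The summed level of the 6 genes was 215.8, 916 and 314 CPM in lean MHCII-low replicates 1, 2 and 3, and 151, 299 and 959 CPM in lean CD11c-negative replicates 1, 2 and 3. Outside the lean macrophages it ran from 72.0 CPM in lean monocyte-derived replicate 1 to 266 CPM in obese MHCII-low replicate 1. The other 24 type I genes, with Trim25 left out, summed to 646 to 818 CPM in lean MHCII-low and 607 to 831 CPM in lean CD11c-negative libraries, a narrower range than that of the 6 genes. Ddx58, which encodes the sister sensor RIG-I, was at 34.5, 31.1 and 29.6 CPM in lean MHCII-low and 26.5, 29.2 and 29.9 CPM in lean CD11c-negative libraries. Ifit3, whose promoter holds the same site versions as Ifit1, was 1.15-fold and 1.41-fold above its other replicates in those 2 libraries, against 2.83-fold and 3.99-fold for Ifit1. Between these, Ifit2 stood at 1.66 and 2.57 times, Rtp4 at 1.75 and 2.04 times, Cmpk2 at 1.81 and 1.86 times and Parp14 at 1.42 and 1.73 times the mean of the other replicates. With Ifit2 and Rtp4, 8 type I genes passed 2-fold in lean CD11c-negative replicate 3. Oas2 was at 0.953 and 0.998 times, Stat2 at 0.979 and 1.07 times and Usp18, the protease that removes ISG15 from its targets, at 0.964 and 1.05 times the mean of the other replicates. The highest such ratio in the second class was 1.28-fold.

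Transcripts of interferon beta were highest in the same library of each lean macrophage population. Ifnb1 had 2, 134 and 30 counts in lean MHCII-low replicates 1, 2 and 3, and 4, 75 and 229 counts in lean CD11c-negative replicates 1, 2 and 3. In lean monocyte-derived cells it had 3, 94 and 0 counts, and there replicate 2 was the highest of its group for 4 of the 6 genes, such as Oasl1 (8.78, 65.5 and 24.5 CPM) and Isg15 (8.55, 17.1 and 8.23 CPM). Ifih1 (32.8, 76.2 and 87.5 CPM) and Mx2 (4.74, 4.97 and 7.97 CPM) were highest in replicate 3, which had 0 counts of Ifnb1. The 14 interferon alpha genes had at most 8 counts each in any library and at most 18 summed. In obese libraries Ifnb1 had 14, 11 and 11 counts in MHCII-low and 53, 4 and 18 in CD11c-negative replicates 1, 2 and 3. It had 35, 0 and 3 counts in CD11c-positive and 26, 26 and 69 in monocyte-derived replicates. Ifnk, which encodes interferon kappa, had 32, 49 and 38 counts in lean MHCII-low and 101, 77 and 84 in lean CD11c-negative replicates. It had 59 to 88 counts in obese macrophage and 98 to 249 in monocyte-derived libraries. The chemokine gene Ccl5 is on the list of T and NK cell markers and is also known as an early IRF3 target. It was at 2.42, 11.6 and 5.26 CPM in lean MHCII-low and 3.52, 9.39 and 36.6 CPM in lean CD11c-negative replicates. In lean MHCII-low replicate 2 and lean CD11c-negative replicate 3, the transcription factor gene Irf9 was at 0.954 and 0.899 times its other replicates. Irf7, another transcription factor gene of the response, was at 0.911 and 0.930 times. The part of Ifnb1 and Ifnk in these levels was not tested.

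**Figure D2:**
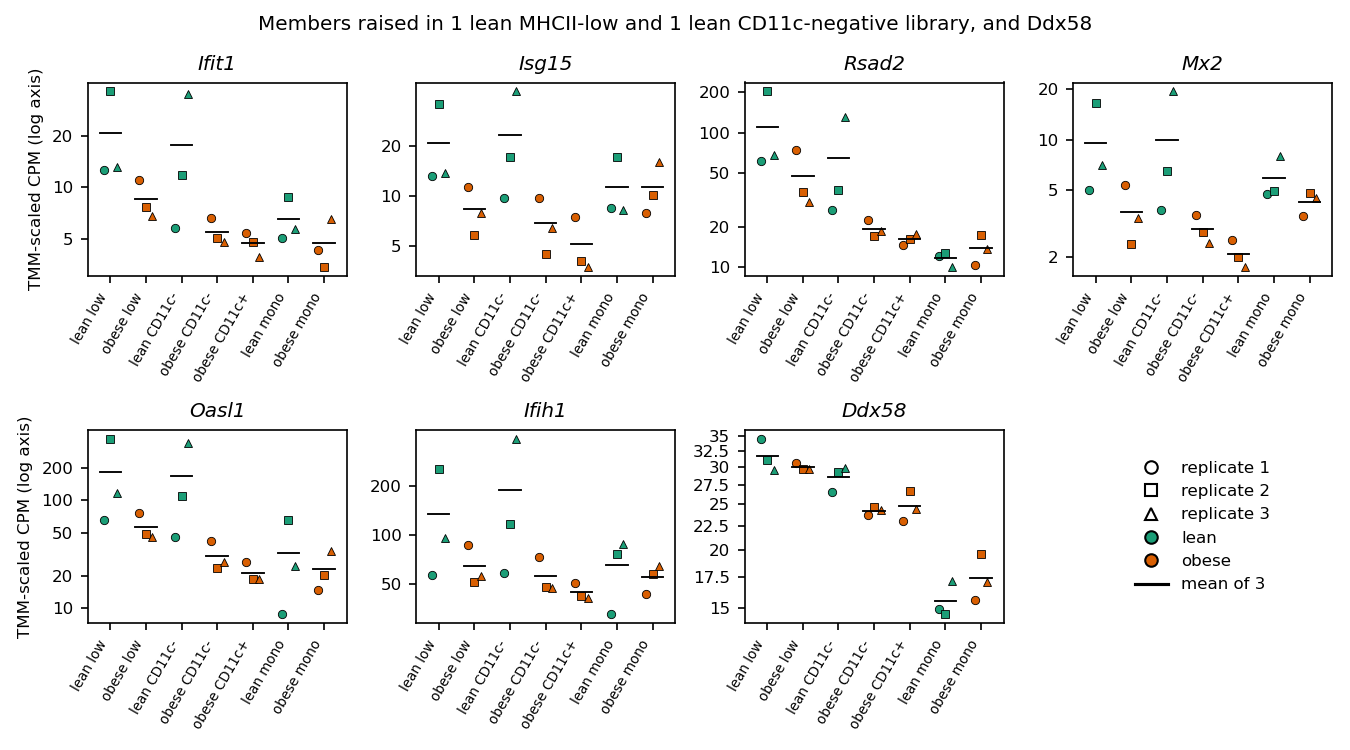
TMM-scaled CPM (log axis, different for each gene) of the 6 members that passed 2-fold in both lean libraries, and of Ddx58, in each of the 21 libraries (points, with the mean of 3 as a line). The square in lean MHCII-low and the triangle in lean CD11c-negative macrophages stand apart for the 6 genes, such as Oasl1 at 373 and 344 CPM, but not for Ddx58.

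In MHCII-low macrophages, the comparison of diets asks which members change with obesity in cells sorted by the same gate. Itgax, which encodes the sort marker CD11c, itself rose with the diet. It ran from 3.74 to 5.44 CPM in lean and from 21.5 to 58.3 CPM in obese MHCII-low (log2 fold change 3.28, SE 0.30, adjusted p = 8.73e-07 by edgeR), and from 14.5 to 19.3 CPM in lean and from 59.4 to 98.3 CPM in obese CD11c-negative macrophages (log2 fold change 2.34, SE 0.28, adjusted p = 1.06e-05). It stood at 480.1 to 648 CPM in CD11c-positive macrophages, and its part in the diet differences was not tested. With the high fat diet, 6 of the 31 type I genes fell (Stat2, Ifi35, Isg20, Oas2, Mx1 and Mx2) and 1 rose (Trim25). Across all genes 30.7% were called, 16.8% higher and 13.8% lower, so the 7 of 31 type I genes called are no larger a share than that of all genes. Of the 31 genes, 27 had a log2 fold change below 0, with a median of -0.47, against a median of -0.07 over all genes tested. Stat2, a subunit of the ISRE-binding complex, was at 72.4, 65.7 and 61.8 CPM in lean and 48.8, 38 and 39.2 CPM in obese libraries, with no overlap (log2 fold change -0.67, SE 0.13, adjusted p = 0.000926 by edgeR's quasi-likelihood test). Ifi35, a leucine zipper protein, was at 29, 31.8 and 29 CPM in lean and 22, 17.8 and 17.9 CPM in obese libraries, also with no overlap (log2 fold change -0.64, SE 0.13, adjusted p = 0.00144). Trim25 went the other way, at 589, 597 and 386 CPM in lean and 719.6, 768 and 793 CPM in obese libraries (log2 fold change 0.54, SE 0.15, adjusted p = 0.0117). Oas2, an enzyme whose product activates RNase L, was at 95.4, 78.2 and 68.8 CPM in lean and 78.2, 46.4 and 45.6 CPM in obese libraries, and these overlapped (log2 fold change -0.51, SE 0.17, adjusted p = 0.0307). The count was 4 without lean MHCII-low replicate 2 (Isg20, Ifi35, Stat2 and Trim25), 4 without lean replicate 3, and 3 without obese replicate 2 or obese replicate 3. Over all genes 4187, 4468, 3323 and 3566 were called in those fits, against 7030 with every library. Oas2 lost its call in 4 of those 6 omissions, all but obese replicate 1 and lean replicate 3, and Trim25 without obese replicate 2, obese replicate 3 or lean replicate 3, where its log2 fold change was 0.54, 0.50 and 0.37.

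In CD11c-negative macrophages, 13 type I genes fell with the diet and 1, Trim25, rose, against 32.4% of all genes called (16.8% higher and 15.6% lower). Those that fell were Oas2, Stat2, Parp14, Mx2, Isg20, Rsad2, Isg15, Ifit1, Oasl1, Ifi35, Ifih1, Herc6 and Mx1. The median log2 fold change of the class was -0.50, against -0.10 over all genes, and 27 of 31 were below 0. Stat2 was at 48.4, 51.3 and 53.1 CPM in lean and 28.5, 29.1 and 32.1 CPM in obese libraries (log2 fold change -0.77, SE 0.13, adjusted p = 0.000206 by edgeR). Oas2 was at 67.7, 60.5 and 63.9 CPM in lean and 36.5, 30.3 and 28.2 CPM in obese libraries (log2 fold change -1.02, SE 0.18, adjusted p = 0.000228). Trim25 was at 551, 418 and 553 CPM in lean and 772, 838 and 888 CPM in obese libraries (log2 fold change 0.71, SE 0.15, adjusted p = 0.00136). These 3 genes had no overlap between diets, and the share of all genes without overlap was not counted. Parp14, an ADP-ribosyltransferase, was at 193, 197 and 337 CPM in lean and 151, 155 and 160.4 CPM in obese libraries, where 1 lean library was far above the rest (log2 fold change -0.64, SE 0.17, adjusted p = 0.00717). Without that library, lean CD11c-negative replicate 3, the class had 3 calls in place of 14, Oas2 (-0.99), Stat2 (-0.72) and Trim25 (0.80), and Parp14 was at -0.31 (adjusted p = 0.14). Over all genes that omission called 4650 of 26056, against 7422 of 22935 with every library. The type I count was 5 or 6 without any 1 of the obese libraries, where 4493 to 5673 genes were called.

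In monocyte-derived cells, 2 type I genes rose with the diet (Oas1a and Dhx58) and 1 fell (Trim30a), against 17.2% of all genes called (7.44% higher and 9.76% lower). The median log2 fold change of the class was -0.02, with 14 genes above and 17 below 0. Oas1a, another oligoadenylate synthetase gene, was at 9.47, 8.6 and 11.9 CPM in lean and 14.3, 18.4 and 16.5 CPM in obese libraries (log2 fold change 0.72, SE 0.15, adjusted p = 0.00429 by edgeR). Dhx58, which encodes the sensor LGP2, was at 9.01, 7.53 and 4.54 CPM and 10.4, 11.4 and 10.1 CPM (log2 fold change 0.58, SE 0.20, adjusted p = 0.0477). For both genes every obese library was above every lean one. Trim30a, a ubiquitin ligase gene known to restrain inflammatory signalling, was at 70.3, 41.3 and 70.4 CPM and 41, 40.8 and 43.5 CPM, with overlap (log2 fold change -0.53, SE 0.16, adjusted p = 0.0285). Trim25 did not pass the test there (log2 fold change 0.40, SE 0.15, adjusted p = 0.0708). Fitted on the 6 compared libraries alone, where the spread of the lean replicates is not pooled with other groups, no type I gene was called, nor was any of the second class. That fit called 122 of 19248 genes, against 3946 of 22935 in the main fit. The type I count ran from 1 without lean monocyte-derived replicate 3 to 8 without lean monocyte-derived replicate 2, and was 5 and 6 without obese replicates 1 and 2. Over all genes 1707, 9903, 2958 and 4355 were called in those fits.

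Of the members, only Ifi35 was called for a diet effect that differed between monocyte-derived cells and MHCII-low macrophages, by 0.98 on the log2 scale (SE 0.19, adjusted p = 0.00426 by edgeR). That is 3.23% of the type I genes, against 4.33% of all genes called, 1.90% higher and 2.43% lower. Ifi35 was at 12.5, 16.5 and 12.5 CPM in lean and 17.6, 17.2 and 17.9 CPM in obese monocyte-derived cells. An antisense gene overlaps 16.8% of its exon bases, and the strand setting of the counts is not known. The difference for Oas1a was 0.69 (adjusted p = 0.0659) and for Oas2 0.81 (adjusted p = 0.0765), neither called. Leaving out 1 library gave 1 to 4 type I calls, the most without obese MHCII-low replicate 1, when Oas1a (0.91, adjusted p = 0.018) and Oas2 (1.26, adjusted p = 0.00088) passed. Between CD11c-negative and MHCII-low macrophages no member of either class differed in its diet effect by edgeR, nor did any of the 22935 genes. At an unadjusted p under 0.05 the counts were 0 of 31 and 1 of 9, and DESeq2 called 0 in both classes.

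**Figure D3:**
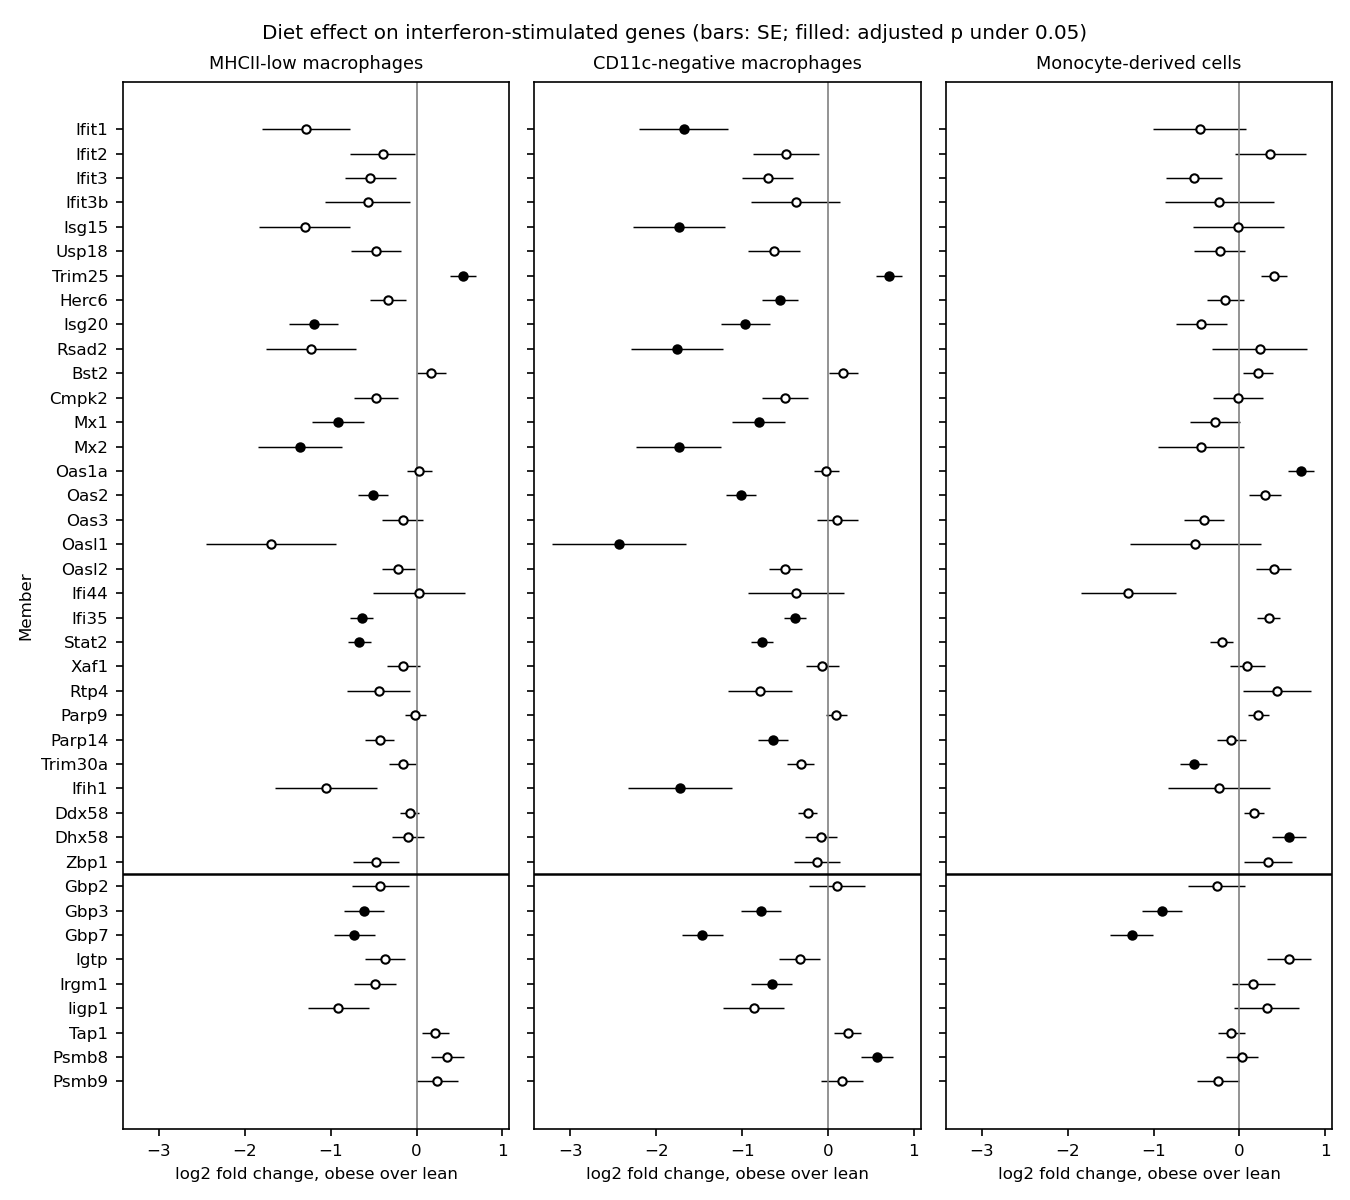
Log2 fold change of obese over lean (x axis, same scale in each panel) for each member (y axis, type I class above the line) in the 3 populations sorted from both diets, with bars of 1 SE and filled points where adjusted p was under 0.05. Most type I points lie left of 0 in both macrophage panels, and Trim25, at 0.54 and 0.71, lies right.

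The list of 7 genes given in every library includes Isg15, Ifit3 and Rsad2 of the type I class. Isg15 was at 13.2, 35.4 and 13.7 CPM in lean and 11.3, 5.89 and 7.97 CPM in obese MHCII-low macrophages. It was at 9.77, 17.2 and 42.3 CPM in lean and 9.73, 4.49 and 6.47 CPM in obese CD11c-negative macrophages, and in the CD11c-positive group at 7.55, 4.12 and 3.77 CPM. The monocyte-derived libraries were at 8.55, 17.1 and 8.23 CPM in lean and 7.89, 10.1 and 15.9 CPM in obese mice. Lean and obese libraries of Isg15 did not overlap in either macrophage population, and 1 lean library of each lay well above the others. Ifit3, which encodes an RNA-binding antiviral protein, was at 12, 10.8 and 6.9 CPM in lean and 7.19, 6.7 and 6.55 CPM in obese MHCII-low macrophages. It was at 6.76, 5.87 and 8.92 CPM in lean and 3.33, 5.11 and 4.76 CPM in obese CD11c-negative, and 3.43, 4.49 and 3.84 CPM in the CD11c-positive group. In monocyte-derived cells it was at 5.89, 1.69 and 4.8 CPM in lean and 2.44, 3.23 and 2.82 CPM in obese libraries. No diet effect on Ifit3 passed the test, and reads of the near-identical Ifit3b make its counts uncertain. Rsad2 was at 74.8, 36.4 and 30.7 CPM in obese MHCII-low, 22.4, 17 and 18.5 CPM in obese CD11c-negative and 14.7, 16.2 and 17.7 CPM in CD11c-positive macrophages. It was at 12.2, 12.8 and 10 CPM in lean and 10.4, 17.5 and 13.6 CPM in obese monocyte-derived cells. Every obese MHCII-low library of Rsad2 was above every other obese library.

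Of the type I genes, Oas2 had the smallest p in 3 of the 4 comparisons between obese populations. It was at 11.8, 13 and 11 CPM in CD11c-positive macrophages, 9.76, 8.69 and 10.4 CPM in lean and 10.5, 13.8 and 11.1 CPM in obese monocyte-derived cells, below every library of the 2 other macrophage populations. Between obese CD11c-negative and MHCII-low macrophages, 2 type I genes were lower, Oas2 (log2 fold change -0.84, SE 0.17, adjusted p = 0.00753 by edgeR) and Stat2 (log2 fold change -0.49, SE 0.13, adjusted p = 0.0419), and none was higher. There 3.05% of all genes were called, 1.19% higher and 1.85% lower, and the class median was -0.31 against -0.00345 for all genes. Replicates of the obese groups deviated together by number, and with the number as a block 8 type I genes were lower, Ifit3, Rsad2, Oas2, Oasl2, Ddx58, Stat2, Cmpk2 and Trim30a. That fit called 2807 of 20081 genes, 1225 higher and 1582 lower. The unblocked type I count was 0 without obese MHCII-low replicate 1 or obese CD11c-negative replicate 3, and 1 without obese MHCII-low replicate 3, obese CD11c-negative replicate 1 or replicate 2. Over all genes those omissions called 235 to 505, against 699 with every library.

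Between obese CD11c-positive and CD11c-negative macrophages, Oas2 was the single type I gene called (log2 fold change -1.41, SE 0.18, adjusted p = 0.000226 by edgeR), with 3.49% of all genes called, 1.38% higher and 2.11% lower. The class median was -0.23, and 25 of 31 genes were below 0. With the replicate number as a block, Mx1 (-0.72) and Zbp1 (-0.75), a sensor of left-handed nucleic acids, were lower too. That fit called 5248 of 20081 genes, 2856 higher and 2392 lower. Among lean macrophages, no type I gene differed between CD11c-negative and MHCII-low cells, where 1.30% of all genes were called, 1.05% higher and 0.253% lower. Oas2 was at -0.34 on the log2 scale there (adjusted p = 0.541 by edgeR). By the unadjusted p, 3 type I genes were under 0.05, and DESeq2 called 1.

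Monocyte-derived cells differed most. In obese mice 13 type I genes were lower and 2 higher than in MHCII-low macrophages, against 32.8% of all genes called (15.3% higher and 17.5% lower). The largest falls by p were Oas2 (log2 fold change -2.27, SE 0.18, adjusted p = 8.45e-09 by edgeR), Ddx58 (log2 fold change -0.79, SE 0.11, adjusted p = 1.12e-05) and Oasl2 (log2 fold change -1.15, SE 0.20, adjusted p = 0.000102). Cmpk2, a mitochondrial nucleotide kinase gene that neighbours Rsad2 on chromosome 12, was lower as well (-1.47), as were Bst2 (-0.86) and Parp14 (-0.73). The 2 genes that were higher were Mx1 and Oas3. Ddx58 was at 30.7, 29.7 and 29.7 CPM in MHCII-low and 15.6, 19.6 and 17.1 CPM in monocyte-derived libraries, with no overlap. In lean mice 18 type I genes were lower and 2, Mx1 and Oas3, higher, against 46.0% of all genes called (25.0% higher and 21% lower). The class median was -1.02 there, against 0.15 for all genes. Among the genes lower in lean monocyte-derived cells were Oas2 (log2 fold change -3.08, SE 0.19, adjusted p = 9.14e-11 by edgeR), Oasl2 (log2 fold change -1.76, SE 0.20, adjusted p = 4.20e-07), Ddx58 (log2 fold change -1.03, SE 0.11, adjusted p = 2.34e-07) and Ifi35 (log2 fold change -1.11, SE 0.14, adjusted p = 9.35e-07). In each of the 4, every monocyte-derived library was below every MHCII-low one, though the share of all genes so separated was not counted.

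Mx1, an antiviral GTPase gene known to be defective in many laboratory strains, was at 31.4, 13.7 and 20.3 CPM in lean and 25.9, 11.8 and 15.9 CPM in obese monocyte-derived cells. It was at 6.85, 8.98 and 7.12 CPM in lean and 5.26, 3.77 and 3.1 CPM in obese MHCII-low, and 2.99, 2.75 and 2.58 CPM in CD11c-positive macrophages. In CD11c-negative macrophages it was at 7.2, 5.91 and 11.2 CPM in lean and 5.29, 3.96 and 4.57 CPM in obese libraries. Every monocyte-derived library was above every macrophage library for Mx1, but narrowly. Obese monocyte-derived replicate 2 was at 11.8 CPM and lean CD11c-negative replicate 3 at 11.2 CPM. Against CD11c-positive macrophages in obese mice, Mx1 was higher (log2 fold change 2.68, SE 0.32, adjusted p = 2.19e-06 by edgeR), as were Stat2 (log2 fold change 0.49, SE 0.13, adjusted p = 0.00567), Oas3 (log2 fold change 0.79, SE 0.24, adjusted p = 0.0114), Usp18 (1.13) and Zbp1 (0.86). Ddx58 was lower (log2 fold change -0.51, SE 0.11, adjusted p = 0.00121), as were Cmpk2 (-0.98), Bst2 (-0.56), Parp9 (-0.39) and Oasl2 (-0.60). Thus 5 type I genes were higher and 5 lower, with 38.7% of all genes called, 19.3% higher and 19.4% lower. Without obese CD11c-positive replicate 2 the count was 6 in place of 10, where 6162 of 26123 genes were called. With the block it was 15, where 11711 of 20081 genes were called.

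**Figure D4:**
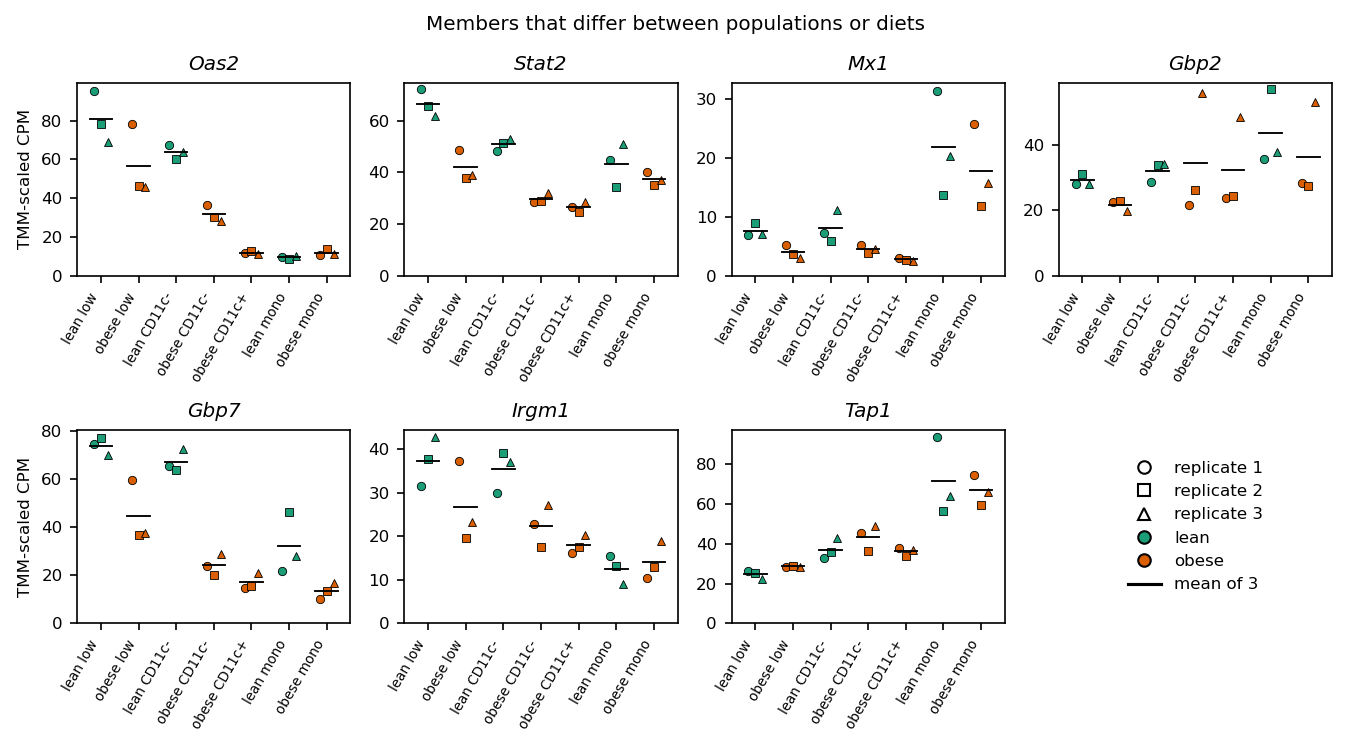
TMM-scaled CPM (linear axis from 0, different for each gene) of 7 members in each of the 21 libraries (points, with the mean of 3 as a line). Oas2 falls from MHCII-low to CD11c-positive and monocyte-derived libraries, Mx1 and Tap1 are highest in monocyte-derived libraries, and replicate 3 (triangle) of Gbp2 stands apart in obese CD11c-negative, CD11c-positive and monocyte-derived libraries.

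With the high fat diet the guanylate-binding protein genes Gbp3 and Gbp7, of a family that acts on membranes around intracellular pathogens, fell in all 3 populations sorted from both diets. Gbp7 was at 74.5, 76.9 and 69.7 CPM in lean and 59.3, 36.8 and 37.4 CPM in obese MHCII-low macrophages (log2 fold change -0.73, SE 0.24, adjusted p = 0.0268 by edgeR). It was at 65.1, 63.7 and 72.2 CPM in lean and 23.9, 20.1 and 28.9 CPM in obese CD11c-negative macrophages (log2 fold change -1.46, SE 0.24, adjusted p = 0.000195). In monocyte-derived cells it was at 21.7, 46.3 and 28.1 CPM in lean and 10.1, 13.5 and 16.8 CPM in obese libraries (log2 fold change -1.26, SE 0.25, adjusted p = 0.00299). In none of the 3 did lean and obese libraries of Gbp7 overlap. Gbp3 fell by 0.62, 0.78 and 0.90 on the log2 scale in the same populations (adjusted p = 0.0494, 0.0153 and 0.0151), also with no overlap. In all, 0 of the 9 genes rose and 2 fell in MHCII-low macrophages, and 1 rose and 3 fell in CD11c-negative macrophages. In monocyte-derived cells 0 rose and 2 fell. The shares called were 22.2%, 44.4% and 22.2% of the class, against 30.7%, 32.4% and 17.2% of all genes. With the compared libraries fitted alone, none of the class was called in monocyte-derived cells, where that fit called 122 of 19248 genes. In MHCII-low macrophages no gene of this class was called when any 1 library other than obese replicate 1 was left out. In CD11c-negative macrophages, the call of Gbp7 alone was left without lean replicate 3, and 2 genes were called without any 1 of the obese libraries or without lean replicate 2. In monocyte-derived cells 1 gene was called without obese replicate 2. Gbp3 lost its call there without obese replicate 1, obese replicate 2 or lean replicate 2 (-0.63, -0.59 and -0.64), and in CD11c-negative macrophages without obese replicate 1, obese replicate 2 or lean replicate 3 (-0.68 in each). Part of the Gbp7 exons (11.3%) is shared with a processed pseudogene, and guanylate-binding genes resemble each other, so their counts are less certain.

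Gbp2 did not pass the test in any diet comparison. It was at 28.1, 31.2 and 28.2 CPM in lean and 22.7, 22.8 and 19.7 CPM in obese MHCII-low macrophages. It was at 28.6, 33.8 and 34.2 CPM in lean and 21.8, 26.2 and 56 CPM in obese CD11c-negative macrophages, and in the CD11c-positive group at 23.8, 24.6 and 48.5 CPM. Its monocyte-derived libraries stood at 35.8, 57.3 and 37.8 CPM in lean and 28.5, 27.6 and 53.3 CPM in obese mice. Replicate 3 was high in 3 of the 4 obese populations but not in MHCII-low macrophages. Irgm1, an immunity-related GTPase gene that acts in autophagy and vacuole defence, was at 31.5, 37.8 and 42.8 CPM in lean and 37.3, 19.5 and 23.3 CPM in obese MHCII-low macrophages. It was at 29.9, 39.2 and 37.2 CPM in lean and 22.8, 17.4 and 27.1 CPM in obese CD11c-negative, and 16.2, 17.5 and 20.3 CPM in the CD11c-positive group. Monocyte-derived libraries of Irgm1 were at 15.4, 13.2 and 9 CPM in lean and 10.5, 12.9 and 19 CPM in obese mice. Irgm1 fell with the diet in CD11c-negative macrophages (-0.66, adjusted p = 0.0437 by edgeR), where lean and obese libraries did not overlap, and the call was lost without any 1 of the obese libraries or without lean replicate 2 or 3. The related genes Igtp and Iigp1 were lower in lean monocyte-derived cells than in lean MHCII-low macrophages (log2 fold changes -1.65 and -2.08), as was Irgm1 (-1.57).

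The antigen-processing genes Tap1 and Psmb8 were higher in monocyte-derived cells than in MHCII-low and CD11c-positive macrophages. Tap1, a chain of the peptide transporter, was at 26.3, 25.3 and 22.4 CPM in lean and 28.6, 28.9 and 28.6 CPM in obese MHCII-low macrophages. It was at 32.8, 35.7 and 42.8 CPM in lean and 45.5, 36.1 and 48.8 CPM in obese CD11c-negative, and 38, 33.9 and 36.7 CPM in the CD11c-positive group. In monocyte-derived cells it was at 93.8, 56.5 and 64.1 CPM in lean and 74.7, 59.6 and 66.4 CPM in obese libraries, above every macrophage library. Tap1 was higher in monocyte-derived cells than in MHCII-low macrophages in lean (log2 fold change 1.53, SE 0.16, adjusted p = 1.09e-07 by edgeR) and obese mice (log2 fold change 1.22, SE 0.16, adjusted p = 3.43e-06), and than in CD11c-positive macrophages (log2 fold change 0.89, SE 0.16, adjusted p = 0.000154). Psmb8, an immunoproteasome subunit gene, was at 20.4, 13.7 and 14.3 CPM in lean and 21.8, 21.4 and 18.9 CPM in obese MHCII-low macrophages. It was at 18.5, 17.4 and 16 CPM in lean and 23.3, 23.6 and 30.3 CPM in obese CD11c-negative, and 27.9, 26.1 and 32 CPM in the CD11c-positive group. In monocyte-derived cells it was at 60.8, 39.2 and 37.1 CPM in lean and 54.3, 36.6 and 49.2 CPM in obese libraries, again above every macrophage library. Psmb8 was higher than in MHCII-low macrophages in lean (log2 fold change 1.5, SE 0.19, adjusted p = 1.66e-06 by edgeR) and obese mice (1.17), and higher than in CD11c-positive macrophages (log2 fold change 0.70, SE 0.19, adjusted p = 0.00514). That last call was lost without obese monocyte-derived replicate 1 (0.55, adjusted p = 0.053). Psmb8 also rose with the diet in CD11c-negative macrophages (0.57, adjusted p = 0.0252), a call lost without obese replicate 3, lean replicate 2 or lean replicate 3 (0.44, 0.57 and 0.54).

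Counted over the 9 genes, 3 were higher (Tap1, Psmb8 and Psmb9) and 4 lower (Gbp7, Igtp, Irgm1 and Iigp1) in lean monocyte-derived cells than in lean MHCII-low macrophages, where 46.0% of all genes were called. In obese mice 2 were higher (Tap1 and Psmb8) and 3 lower (Gbp7, Irgm1 and Igtp), beside 32.8% of all genes. Against CD11c-positive macrophages 2 were higher (Tap1 and Psmb8) and 1 lower (Iigp1), and these 3 of 9 are a smaller share than the 38.7% of all genes. The obese counts were 3 in place of 5 without obese monocyte-derived replicate 1 or obese MHCII-low replicate 1, and 1 in place of 3 against CD11c-positive cells without obese monocyte-derived replicate 1. Tap1 was higher in obese CD11c-negative than in MHCII-low macrophages (log2 fold change 0.60, SE 0.16, adjusted p = 0.0374 by edgeR), a call lost without any 1 of those 6 libraries except obese CD11c-negative replicate 2. With the replicate block, Gbp7 was called lower there too (-0.90), and between CD11c-positive and CD11c-negative macrophages Tap1 was called lower (-0.26), where no gene of the class was called without the block, 1 was under an unadjusted p of 0.05 and DESeq2 called 0. Between lean CD11c-negative and MHCII-low macrophages the counts were 0 by edgeR, 1 at an unadjusted p under 0.05 and 1 by DESeq2. Tap1 and Psmb9 lie head to head on chromosome 17 and their exons overlap (3.87% of Tap1 and 5.79% of Psmb9 exon bases), so their reads cannot be told apart there without strand. The same holds for Psmb8, where an antisense gene overlaps 14.7% of exon bases.

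The other genes of the pathway come from lists chosen with earlier results known, and their counts stand beside 30.7%, 32.4% and 17.2% of all genes called with the diet in MHCII-low, CD11c-negative and monocyte-derived cells. Of 9 genes of interferon receptors and kinases, 4 rose and 1 fell with the diet in MHCII-low macrophages, 3 rose and 1 fell in CD11c-negative macrophages, and 2 rose and 1 fell in monocyte-derived cells. Ifnar1, a chain of the type I receptor, rose in MHCII-low (0.73) and CD11c-negative macrophages (0.77), and Ifngr2, a chain of the interferon gamma receptor, by 1.01 and 1.13. Of 9 transcription factors of the response, 2 rose and 1 fell in each macrophage population, and 3 rose in monocyte-derived cells. Nlrc5, the activator of class I genes, fell in MHCII-low (-0.90) and CD11c-negative macrophages (-1.24). Of 12 upstream sensors and adaptors, 1 rose and 2 fell in each macrophage population and 4 rose in monocyte-derived cells. Of 12 further genes of class I presentation, 2 rose in MHCII-low, 6 in CD11c-negative and 1 in monocyte-derived cells, and none fell. Of 7 tested negative regulators, 1, the phosphatase gene Ptpn6, rose in each of the 3 populations, by 1.07, 1.17 and 0.54.

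Markers of other cells were counted with the diet as well. Of all genes, 13.8%, 15.6% and 9.76% were called lower in MHCII-low, CD11c-negative and monocyte-derived cells, and 16.8%, 16.8% and 7.44% higher. The lists are short, and counts such as 1 of 7 B cell markers lower in CD11c-negative macrophages are near those shares. Of 14 tested T and NK cell markers, 9 fell in MHCII-low, 7 in CD11c-negative and 4 in monocyte-derived cells, and none rose. Their summed level ran from 36.7 to 59.2 CPM in lean and from 11.2 to 16.4 CPM in obese MHCII-low macrophages, from 36 to 69.3 CPM in lean and from 15.1 to 15.4 CPM in obese CD11c-negative macrophages, and from 77.2 to 103 CPM in lean and from 47.4 to 58.7 CPM in obese monocyte-derived cells. Ifng, made by such cells, fell in MHCII-low macrophages (-2.99, adjusted p = 0.0138 by edgeR) at no more than 29 counts in a library. The T and NK sum includes Ccl5, at 3.03 times its other replicates in lean MHCII-low replicate 2. It was at 5.67 times in lean CD11c-negative replicate 3, the library with the sum of 69.3 CPM. Of 8 tested markers of plasmacytoid dendritic cells, a known source of type I interferon, 3, 1 and 0 fell with the diet in MHCII-low, CD11c-negative and monocyte-derived cells, and 0, 0 and 1 rose. Their surface lectin gene Siglech was at 37.2, 30.1 and 25.6 CPM in lean and 7.31, 3.49 and 3.94 CPM in obese MHCII-low macrophages (log2 fold change -2.65, SE 0.37, adjusted p = 5.63e-05 by edgeR). It was at 26.4, 24.9 and 25.7 CPM in lean and 1.02, 0.858 and 1.64 CPM in obese CD11c-negative macrophages (log2 fold change -4.46, SE 0.43, adjusted p = 8.97e-07). In both populations every lean library of Siglech was above every obese one. The summed level of the list, most of it Tcf4, ran from 328 to 397 CPM in lean and from 342 to 359 CPM in obese MHCII-low macrophages, from 333 to 339.98 CPM in lean and from 275 to 339.8 CPM in obese CD11c-negative macrophages, and from 92.8 to 152 CPM in lean and from 145 to 194 CPM in obese monocyte-derived cells. The list's defining markers Ly6d, Klk1 and Cox6a2 did not pass 0.94 CPM in any library. Of 8 conventional dendritic cell markers 3, 4 and 2 fell in the 3 populations in the same order and none rose, and the sum ran from 108 to 127 CPM in lean and from 40.3 to 66 CPM in obese MHCII-low, and from 95.4 to 108 CPM in lean and from 27.4 to 34.8 CPM in obese CD11c-negative macrophages. Of 8 monocyte markers 4, 3 and 1 fell, of 7 B cell markers 3, 1 and 0, of 8 adipocyte markers 5, 4 and 1, and of 5 mesothelial markers 3, 2 and 0, and of all these only the adipocyte gene Fabp4 rose, in each of the 3. Of 5 tested neutrophil markers 1 fell, in monocyte-derived cells. Of 8 fibroblast markers 3, 3 and 4 rose and none fell, and their sum ran from 195 to 297 CPM in lean and from 511 to 1491 CPM in obese monocyte-derived cells. Of 9 macrophage markers 2, 3 and 4 rose and 0, 1 and 0 fell. Reads of olfactory and other receptor genes that these cells should not express were higher in lean than in obese libraries of the same population, up to 1172 CPM in lean monocyte-derived replicate 3 against 174 CPM at most in obese libraries. The part of these cells and reads in the diet differences was not tested.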

How the data were processed

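The deposited table holds read counts per gene, made by the authors. The build was GRCm38 and the tools named were featureCounts (Subread 1.4.6-p5), STAR 2.6.0a, Trim Galore 0.4.5 and bcl2fastq, per the submitters' processing notes. The annotation, strand setting and handling of multi-mapping reads are not given in the sources used here. Gene IDs were matched to GENCODE M21 (54409 of 54532 without their version). Exons of 14 members are overlapped by another gene, 9 on the other strand.

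Counts were filtered with filterByExpr, scaled by TMM and fitted by edgeR 4.0.16 (R 4.3.3) with robust quasi-likelihood on 7 group means of all 21 libraries, which left 14 residual degrees of freedom (common dispersion 0.0502). Tests were 2-sided, p-values were Benjamini-Hochberg adjusted over 22935 genes, and a gene was called at adjusted p under 0.05. The SE is that implied by the F statistic. Overlap between libraries was checked for members and listed genes only, so the share of all genes without it is not known. The script was tested on simulated data. Totals give counting error only, since PCR copies are not independent molecules. Alternatives were DESeq2 1.42.0, its size factors, no filter, the compared libraries alone, replicate blocks and leaving out each library. The block within obese libraries was added after seeing the data.

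Replicate numbers come from the titles. In obese groups those in the descriptions are the same, and in some lean groups they differ. By description number, over 7909 genes, deviations from group means correlated above 0.1 in 18 of 18 same-numbered obese pairs (0.108 to 0.778) and in 3 of 36 other pairs, so the numbers pair obese libraries. Same-numbered lean pairs passed 0.1 in 5 of 7, and other lean pairs in 2 of 20. The highest lean pair, at 0.639, was lean MHCII-low replicate 2 with lean CD11c-negative replicate 3, whose numbers differ.

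The members and lists were chosen with earlier results of these data known. Full statistics are given for the 4 type I and 2 second-class genes of smallest p in a comparison, called ones of at least 10 CPM first, and Isg15, Ifit3, Rsad2, Gbp2, Irgm1, Tap1 and Psmb8 in every library.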

Additional observations from a re-analysis of the deposited data

Results flagged for a closer look

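A difference in the diet effect between monocyte-derived cells and MHCII-low macrophages, tested as an interaction by edgeR, was called for 1 member and for 5 genes of the pathway lists. Of all genes, 4.33% were called. Ifi35 differed by 0.979 on the log2 scale (SE 0.19, adjusted p = 0.00426), at -0.64 in MHCII-low and 0.34 in monocyte-derived cells. Tlr9, an endosomal DNA receptor gene, differed by 1.365 (SE 0.19, adjusted p = 0.000224), falling in MHCII-low (-0.83) and rising in monocyte-derived cells (0.53). Tlr7, an endosomal RNA receptor gene, differed by 1.585 (SE 0.30, adjusted p = 0.00366) and was at 11, 18 and 9.26 CPM in lean and 23.2, 45.2 and 43.4 CPM in obese monocyte-derived libraries, with no overlap. Ifi204, a DNA sensor gene of a family of similar copies, differed by 1.154 (SE 0.30, adjusted p = 0.0323). Jak2, a kinase gene of the interferon gamma receptor, differed by -1.194 (SE 0.31, adjusted p = 0.0311), and Tyk2, a kinase gene of the type I receptor, by -0.842 (SE 0.18, adjusted p = 0.00956). Jak2 was at 1304, 636 and 900.1 CPM in lean and 679.8, 354 and 450.0 CPM in obese monocyte-derived libraries, which overlapped. Library quality moved with the lean monocyte-derived group, whose replicates agreed least, and its part in these differences was not tested.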

How the results depend on the processing

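Counts of members called are given here as type I count, then second-class count. Without the filter on low counts they were 12 for the diet in MHCII-low macrophages (type I; main 7), 4 and 3 for obese CD11c-negative against MHCII-low (main 2 and 1), 3 for CD11c-positive against CD11c-negative (type I; main 1), 1 and 1 for lean CD11c-negative against MHCII-low (main 0 and 0), and 7 and 2 for the difference in diet effect of monocyte-derived cells from MHCII-low (main 1 and 0). DESeq2 gave 11 for the diet in MHCII-low (type I), 2 for obese CD11c-negative against MHCII-low (second class), 1 and 1 for the lean pair, and 3 for that difference (type I). With the compared libraries alone the counts were 5 for the diet in MHCII-low (second class), 0 and 0 for the diet in monocyte-derived cells, 1 for obese CD11c-negative against MHCII-low (type I), 4 for CD11c-positive against CD11c-negative (type I) and 1 and 1 for the lean pair. The title number as a replicate block gave 1 for the lean pair (second class) and 2 for the difference (type I). Within obese libraries the replicate block gave 8 and 2 for CD11c-negative against MHCII-low and 3 and 1 for CD11c-positive against CD11c-negative, and 15 and 20 type I calls for monocyte-derived cells against CD11c-positive and MHCII-low, within 1.5 times the main 10 and 15. The lean description number as a block gave 16 and 6 calls for lean monocyte-derived against MHCII-low (main 20 and 7). The numbers pair lean libraries less clearly. Over all genes, calls without the filter numbered 6996, 1215, 1435, 633 and 1632 of 50228, in the order of comparisons above. DESeq2 called 7372, 1230, 595 and 1857 genes. The compared libraries alone gave 7009 of 18972, 122 of 19248, 859 of 18659, 3172 of 18216 and 649 of 19136. Blocks called 363 and 1115 of 22935 by title number, and 6029 of 20994 by lean description number. Within obese libraries they called 2807, 5248, 11711 and 10779 of 20081. Leaving out 1 library gave 3 to 7 and 0 to 3 for the diet in MHCII-low, 3 to 14 and 1 to 4 in CD11c-negative, 1 to 8 and 1 to 3 in monocyte-derived cells, 0 to 2 and 0 to 1 for obese CD11c-negative against MHCII-low, 6 to 9 and 1 to 4 for monocyte-derived against CD11c-positive, 10 to 13 and 3 to 6 against MHCII-low, and 1 to 4 and 0 to 2 for the difference in diet effect. Over all genes, such omissions gave 3323 to 6281 calls for the diet in MHCII-low (main 7030) and 4493 to 6076 in CD11c-negative (main 7422). In monocyte-derived cells they gave 1707 to 9903 (main 3946), and for obese CD11c-negative against MHCII-low 235 to 505 (main 699). Monocyte-derived cells had 6162 to 7373 against CD11c-positive (main 8884) and 5246 to 6509 against MHCII-low (main 7524). The difference in diet effect had 415 to 2484 (main 993). Omission also lowers the number of libraries, and no cause of the other shifts was tested. Of the single-gene results, 742 values kept direction and call, 55 lost the call, 36 gained it and 1 reversed, that of Gbp2 in the difference of diet effects between CD11c-negative and MHCII-low macrophages, which ran from -0.0021 without obese CD11c-negative replicate 3 to 0.79 without replicate 1 and was not called. Members under 3 CPM, such as Ifit3b and Ifi44, are limited by depth.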

Other observations

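Replicate 3 of the obese groups stood apart for guanylate-binding proteins in 3 of 4 populations. Against the mean of replicates 1 and 2, Gbp2 was 2.34-fold higher in obese CD11c-negative, 2-fold in CD11c-positive and 1.9-fold in monocyte-derived cells, and at 0.866 times in MHCII-low macrophages. Gbp3 was at 1.43, 1.65, 1.66 and 0.861 times, and Gbp7 at 1.31, 1.38, 1.43 and 0.779 times in the same order. The immunity-related GTPase gene Igtp was at 1.42, 1.36, 1.79 and 0.913 times. Tap1 was at 1.2, 1.02, 0.988 and 0.995 times. Zbp1, of the type I class, was at 1.66, 1.52, 1.5 and 0.820 times, whereas Oasl1 was at 0.813, 0.823, 1.94 and 0.727 times. The direction was thus shared by Gbp2, Gbp3, Gbp7, Igtp and Zbp1 in these 3 populations of the same number. Other members of both classes shared it too. Iigp1 was at 1.69, 1.36, 1.29 and 0.967 times, Irgm1 at 1.35, 1.21, 1.62 and 0.818 times, Psmb8 at 1.29, 1.19, 1.08 and 0.877 times and Ifit2 at 1.26, 1.2, 1.49 and 0.59 times. Of genes with a mean of at least 1 CPM, 0.554%, 0.573% and 0.643% passed 2-fold in replicate 3 of those 3 populations. These genes and libraries were chosen after their values were seen, and no test was made.

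Ifng had from 3 to 8 counts in those 12 obese libraries apart from obese MHCII-low replicate 1, where it had 0, so its level gives no order among them. Trim25 took 23.6% of the summed type I level in lean CD11c-negative replicate 3 and 60.7% in CD11c-positive replicate 3. Without Trim25 the class summed to 1223 ± 442 CPM in lean MHCII-low and 1155 ± 556 CPM in lean CD11c-negative macrophages, 772 ± 137 CPM and 612 ± 31.5 CPM in their obese counterparts, 514 ± 8.31 CPM in CD11c-positive macrophages, and 532 ± 40.2 CPM and 498 ± 42.3 CPM in lean and obese monocyte-derived cells.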
